A study of Mus musculus with 11 samples.

Results

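Described here are 219 ATAC-seq peaks, 0.569% of the 38509 peaks of the study. Their chromatin was far less accessible in naive CD4 T cells than in 3 other CD4 T cell subsets. It was accessible to a like degree in these 3. ATAC-seq marks open chromatin by the DNA that a transposase can cut and tag, and each peak has 1 deposited signal value per library. For each peak, log2(signal + 1) was averaged within each sorted group. A peak was a member where effector (Teff), anergic and regulatory (Treg) cells each exceeded naive cells by 2 or more, and where these 3 means lay within 0.8 of each other. The smallest of the 3 differences over naive is called the margin, and the largest minus the smallest of the 3 means is called the spread. Members were thus selected on the deposited signal itself, so their signal values are given as a description and carry no test.

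The study sorted CD4 T cells from mixed spleen and lymph nodes of wildtype C57BL/6 Foxp3-GFP mice with a polyclonal T cell repertoire, freshly isolated and without treatment. Naive cells (n = 2 libraries) were sorted as CD44low. Both other FOXP3-negative sorts were CD44high: Teff cells (n = 3) as CD73low FR4low, and anergic cells (n = 3) as CD73high FR4high NRP1+. Treg cells (n = 3) expressed FOXP3 and CD25. The labels give no age and do not say whether replicates came from separate animals. The sorted phenotype defines each group, so "anergic" names surface markers and not a measured failure to respond. "Experienced" is used as a common name for the Teff, anergic and Treg groups, and no CD44 level is stated here for Treg cells.

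A naive CD4 T cell that meets its antigen remodels its chromatin, and part of the newly opened regulatory DNA stays accessible after the first response. AP-1 factors, which pair FOS, JUN or BATF proteins on a short palindrome, and NF-kB, which is released from its inhibitors downstream of the T cell receptor, are well known for occupying such DNA. Effector, anergic and regulatory T cells differ in function, yet cells of each kind can carry marks of earlier receptor signalling such as surface CD44.

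Stretches of 6 members are printed as examples and do not stand for all members. They are from GRCm38/mm10 (RefSeq GRCm38.p6), plus strand, 5′ to 3′, in lower case. Capitals mark matches to the AP-1 palindrome TGANTCA, to the NF-kB letters GGGNNTTTCC or its reverse complement, and, at Ip6k1, to a composite for AP-1 with an interferon regulatory factor (IRF), in which GAAA stands directly before the palindrome. The Rgs2 stretch followed from a rule on AP-1 matches, and the other 5 were chosen after their values were seen. A match is a description of letters and not a bound site.
The Rgs2 stretch spans chr1:144076046-144076333, runs past both edges of the peak, lies between genes and holds 2 AP-1 matches. The first match lies outside the peak and the second at or past its other edge, so the peak itself holds neither in full. Its signal in both naive libraries was 1 read, the lowest value of each.
Rgs2: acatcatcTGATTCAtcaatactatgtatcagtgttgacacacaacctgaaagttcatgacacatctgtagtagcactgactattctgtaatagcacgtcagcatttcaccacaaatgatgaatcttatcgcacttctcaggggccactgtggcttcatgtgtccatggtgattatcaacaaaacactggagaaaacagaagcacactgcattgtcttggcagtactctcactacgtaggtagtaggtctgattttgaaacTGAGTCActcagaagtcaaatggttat
The Nek6 stretch, chr2:38471936-38472137, lies 39.7 kb upstream of the gene and holds 1 match to each motif.
Nek6: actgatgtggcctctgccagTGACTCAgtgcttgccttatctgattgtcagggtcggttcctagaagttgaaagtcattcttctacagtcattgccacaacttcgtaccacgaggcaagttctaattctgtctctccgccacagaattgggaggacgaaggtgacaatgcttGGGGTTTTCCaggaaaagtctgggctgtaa
The Samsn1 stretch, chr16:75906885-75906953, lies in an intron of that gene and holds both motifs within 69 bases.
Samsn1: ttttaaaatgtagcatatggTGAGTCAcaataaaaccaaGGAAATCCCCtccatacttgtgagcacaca
The Ip6k1 stretch, chr9:108010481-108010719, is intronic in this inositol phosphate kinase gene and holds 1 of the 4 composites found among members, and an NF-kB match.
Ip6k1: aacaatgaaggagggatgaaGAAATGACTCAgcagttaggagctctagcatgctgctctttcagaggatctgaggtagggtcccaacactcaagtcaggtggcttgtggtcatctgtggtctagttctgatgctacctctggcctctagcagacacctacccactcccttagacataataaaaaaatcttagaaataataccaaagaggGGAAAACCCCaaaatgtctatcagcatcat
The Batf stretch, chr12:85703690-85703739, is from an intron of the gene for the AP-1 factor BATF and holds an NF-kB match and no AP-1 match in its central window.
Batf: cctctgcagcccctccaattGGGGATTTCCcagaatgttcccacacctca
The Cd44 stretch, chr2:102948664-102948760, lies 47.0 kb upstream of the gene for the surface marker that divides the naive sort from the Teff and anergic sorts. It holds 2 AP-1 matches.
Cd44: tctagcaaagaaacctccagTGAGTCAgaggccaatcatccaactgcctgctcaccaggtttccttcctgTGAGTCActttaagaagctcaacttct

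Facts of the whole series that bear on these values are few. Reads in peaks ranged from 14.7 to 68.8 M per library, and 1 read was worth 0.527 to 2.129 signal units. Sort markers were read at single peaks. Mean signal at the Foxp3 intron peak was 11.6 in naive, 31.1 in Teff, 131 in anergic and 1330 in Treg libraries. At the Nt5e promoter, Nt5e encoding CD73, it was 438, 931, 1410 and 1150, and at the Cd44 start-site peak 206, 401, 539 and 395 in the same order. Other Cd44 peaks did not all share this pattern. Of 16 peaks nearest to Cd44, 6 were higher than naive by 2 or more on the log2 scale in all 3 groups. An intron peak 52.5 kb from the Cd44 start was at 227, 236, 235 and 181. The anergic sort was FOXP3 negative, and its Foxp3 signal above that of Teff was not examined further. Peaks nearest to 3 of 10 B cell marker genes had a summed signal of 656 to 691 in naive libraries and 485 to 622, 503 to 597 and 604 to 619 in Teff, anergic and Treg libraries. For 6 of 12 myeloid marker genes the sums were 6940 to 7660 in naive, 8360 to 9580 in Teff, 9740 to 10100 in anergic and 7400 to 8560 in Treg libraries. For 5 of 11 genes of CD8, natural killer and innate-like T cells they were 23200 to 23800, 24700 to 28700, 20600 to 25900 and 19000 to 24300. The median difference over naive of these 27 peaks was 2.18 in Teff, 0.62 in anergic and 0.42 in Treg cells on the log2 scale. Of them 16 (59.3%), 12 (44.4%) and 8 (29.6%) were called higher by the limma test, beside 22.7%, 25.3% and 22.3% of all peaks, 1, 3 and 4 were called lower. In all, 3 (11.1%) opened by 2 or more in all 3 groups, against 4.83% of all peaks on chromosomes. Of 16 peaks near the myeloid genes, 2 (12.5%) opened in this way. By the limma test 4 (25%), 6 (37.5%) and 3 (18.8%) of the 16 were higher in Teff, anergic and Treg cells, and 3, 3 and 1 lower. Of 6 peaks near the B cell genes, 0 opened in this way. In the same order 1, 1 and 2 of the 6 were called higher and 1, 2 and 2 lower. No peak of these 3 marker lists was a member, and their part in the members' signal was not tested.

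Most members were low in naive cells, and every member was higher in each experienced library than in both naive libraries. The median of the members' group means was 21.4 signal units in naive cells, 171 in Teff, 179 in anergic and 161 in Treg cells, whereas the medians over all peaks lay between 211 and 218 in all 4 groups. Naive means of members had quartiles of 12.4 and 41 signal units and reached 877 near A630001O12Rik, so that not all members were closed in naive cells. Thus in experienced cells the typical member reached somewhat less than the typical peak, and in naive cells it stood far below it. The 9 experienced libraries were all above both naive libraries at 219 of 219 members, as the rule nearly demands; 18.4% of all peaks had the same order. The lowest experienced library exceeded the highest naive library by 1.51-fold to 57.9-fold (median 3.94-fold) and by at least 2-fold at 215 members. In bulk libraries, a smaller share of cells with an open site and less accessibility per cell cannot be told apart.

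**Figure D1:**
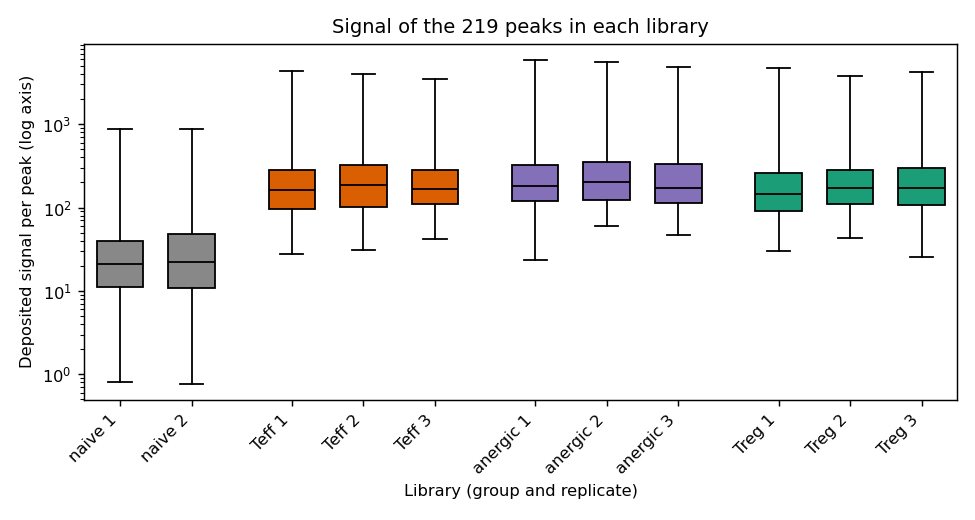
Deposited signal (log axis) of the 219 members in each of the 11 libraries; boxes span the quartiles with the median as a line, and whiskers reach the lowest and highest member. Medians are 21.1 and 22.5 in the naive libraries and 146 to 201 in the 9 experienced libraries.

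The size of the step varied among members. Median differences over naive in log2(signal + 1) were 2.79 in Teff, 3.04 in anergic and 2.75 in Treg cells, against -0.03, -0.04 and -0.04 over all peaks. The margin lay between 2 and 2.5 at 101 members, between 2.5 and 3 at 47, between 3 and 4 at 49, between 4 and 5 at 16 and above 5 at 6 members, with a highest value of 6.02. All 219 members passed the filter on low reads. The limma test called each of them higher than naive in each of the 3 comparisons, beside 22.7% of all peaks tested for Teff, 25.3% for anergic and 22.3% for Treg cells (40.1%, 50.5% and 45.3% in either direction, and 17.4%, 25.1% and 23% lower); the rule used these contrasts, so nothing is read from it. With libraries scaled to their total reads in peaks, the calls for Treg against naive over all peaks split into 10709 higher and 5721 lower, where the deposited scale gave 8568 and 8867, and all 219 members were still called higher.

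Naive signal at the members rested on few reads. Both naive libraries held 1 read, the lowest value in any library, at 3 members, and 12 members had 1 read in at least 1 of them. No value of the table is 0, so 1 read may also stand for none. The 2 naive libraries together had under 20 reads at 31 members and at least 100 at 59. Their median SD of log2 signal at members was 0.36, against 0.14 over all peaks, whereas the experienced groups had 0.22 to 0.25 at members and 0.19 to 0.20 over all peaks. With at least 20 naive reads required, a limit added after the data were seen, 188 members remained.

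Equal opening was uncommon among peaks that opened in all 3 subsets. Of 1859 peaks that met the step of 2 in each experienced group, members made up 11.8%, and the other 1640 had a median spread of 2.04, against 0.52 among members, which the rule set. Anergic cells had the highest of the 3 means at 116 members (53.0%), Teff at 58 (26.5%) and Treg at 45 (20.5%). Among the 1640 peaks that opened further apart, anergic cells were highest at 82.1%, Teff at 11.2% and Treg at 6.71%. Anergic cells thus had the highest mean at most peaks of both sets. The limit on spread bounds any lead at members, so the sets are not compared in this. Over all peaks the median spread was 0.55.

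**Figure D2:**
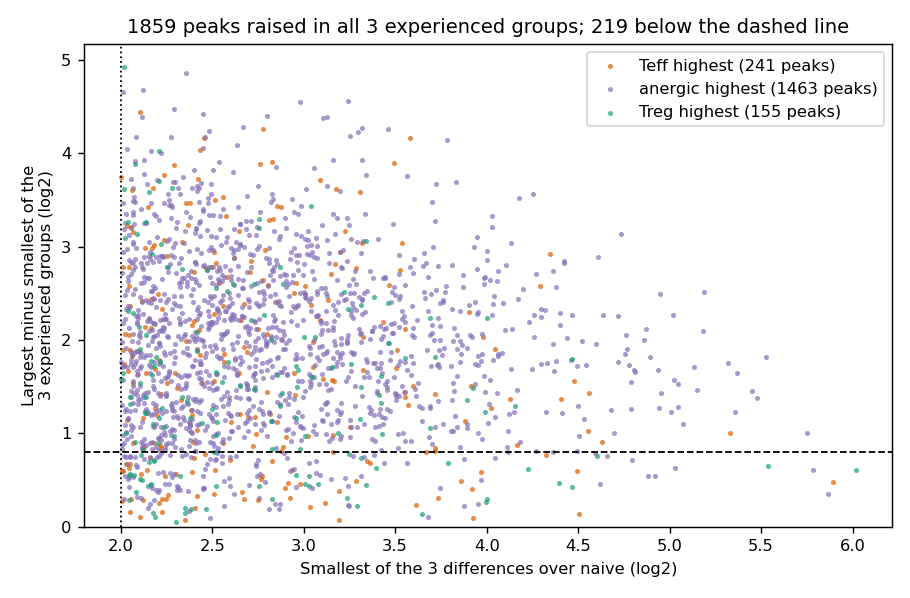
Each point is 1 of the 1859 peaks that were higher by 2 or more (dotted line) in all 3 experienced groups, with the margin on the x axis and the spread of the 3 group means on the y axis, both in log2 units, coloured by the group with the highest mean. The 219 members lie under the dashed line at 0.8, and 1463 of the 1859 points are highest in anergic cells.

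Within the limit of 0.8, anergic signal lay above Teff signal at 144 members and above Treg signal at 156, with median differences of 0.21 and 0.25 log2 units, and Treg lay above Teff at 106 with a median of -0.02. Anergic and Teff libraries did not overlap at 76 members (66 with anergic above), beside 43.5% of all peaks. Anergic and Treg libraries did not overlap at 69 members (61 with anergic above), beside 44.5%, and Treg and Teff libraries at 60 (25 with Treg above), beside 45.2%. The limma test called 26 members between anergic and Teff cells (24 higher in anergic; 32.8% of all peaks called, 15.9% higher and 16.8% lower), 15 between Treg and Teff cells (6 higher in Treg; 32.6%, 14.4% higher and 18.2% lower) and 23 between anergic and Treg cells (22 higher in anergic; 34.1%, 19.4% higher and 14.8% lower). The rule kept these differences small, so the low shares are its product. With libraries scaled to total reads in peaks the calls were 24 (21 higher in anergic), 11 (8 higher in Treg) and 12 (10 higher in anergic), so the lean between Treg and Teff turned with the scale. Over all peaks, anergic against Treg split into 7462 higher and 5680 lower on the deposited scale and 5078 and 7570 on the scale of total reads.

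Members at the edge of the rule show what the thresholds separate. The members nearest above the margin of 2 lay nearest to Smad3, a mediator of TGF-beta signals, and Tmem266, both with a margin of 2.01. Just outside lay peaks near Kif13a (1.999), a motor protein gene, and Atp6v1g3 (1.996), a proton pump subunit gene, which met the limit on spread. At the limit of 0.8 on spread, peaks near Serpina4-ps1 and Mapre2 lay inside at 0.798, and peaks near Resf1 and Itpr1 outside at 0.802.

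Members were mostly distal and were spread over the genome. A promoter, taken as a peak centre within 1000 bases of a RefSeq transcription start site, held 18 of 219 members (8.22%), against 33.2% of all peaks on chromosomes, 5.06% of the peaks that opened further apart and none of the 104 peaks of the mirror set. The mirror set holds the peaks that were lower than naive by 2 or more in all 3 groups, also within 0.8. The median distance to the nearest start was 16.5 kb for members, 5.61 kb for all peaks and 15.1 kb for distal peaks. Introns held 120 members (54.8%, against 43.2% of all peaks) and intergenic DNA 86 (39.3%, against 38.6%). Coding exons held 3, 5′ untranslated regions 5 and 3′ untranslated regions 4. In 29 of the 120 intronic members the host gene was not the gene with the nearest start. Median width was 325 bases (369 over all peaks) and median GC content 47.3% (52.0%; 49.3% for distal peaks). Members lay on 19 chromosomes, with 24 on chromosome 2, 22 on chromosome 9 and 21 on chromosome 1.

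**Figure D3:**
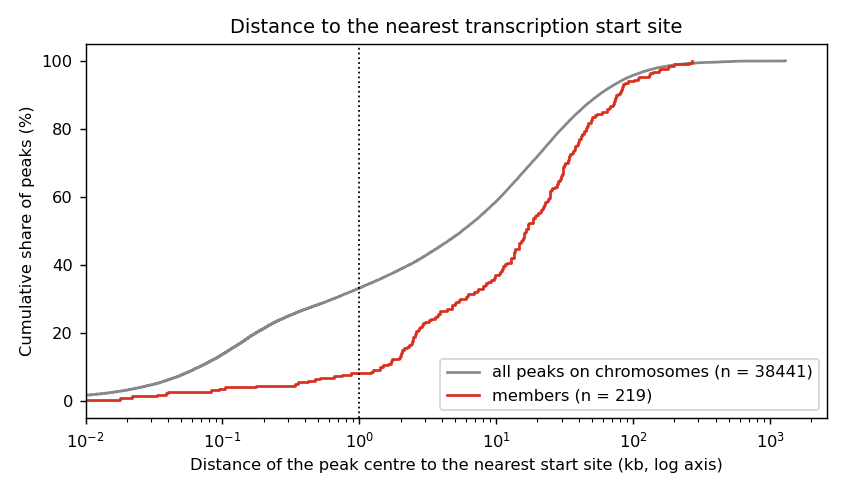
Cumulative share of peaks (y axis, percent) by the distance of the peak centre to the nearest transcription start site (x axis, kb, log axis), for members and for all peaks on chromosomes; the dotted line marks 1 kb. At that line stand 8.22% of members and 33.2% of all peaks, and the median distances are 16.5 and 5.61 kb.

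Sequence content was compared in the central 300 bases of each peak, on both strands and without mismatches, as shares beside those of all peaks. In a peak narrower than 300 bases this window runs past its edges. The AP-1 palindrome TGANTCA occurred in 58 members (26.5%), against 11.8% of all peaks, 15.3% of distal peaks, 37.0% of the peaks that opened further apart and 7.69% of the mirror set. Restricted to distal members the share was 27.4%. The NF-kB letters GGGNNTTTCC occurred in 24 members (11%), against 2.91% of all peaks, 3.53% of distal peaks, 8.72% of the peaks that opened further apart and 1.92% of the mirror set. Both motifs occurred in 7 members, nearest to Nek6, Samsn1, Ip6k1, Lime1, Mir5122, Gm7550 and 0610040F04Rik. The share of all peaks with both was not counted, so nothing is read from this number. The 2 AP-1 and IRF composites, with TTTC and 4 free bases or with GAAA directly before TGANTCA, each contain the AP-1 letters, and either was found in 4 members (1.83%; 0.572% of all peaks, 4.21% of the peaks that opened further apart).

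The position of members among these sets varied from motif to motif. RUNX (TGTGGTT) occurred in 21.0% of members, 14.8% of distal peaks, 13.7% of the peaks that opened further apart and 29.8% of the mirror set. NFAT (TGGAAA, which can overlap an NF-kB match) occurred in 25.6% of members and 25.4% of distal peaks, against 40.9% of the peaks that opened further apart. TCF/LEF (CTTTGAA), letters bound by factors of the naive state, occurred in 4.57% of members, 8.52% of distal peaks, 9.09% of the peaks that opened further apart and 21.2% of the mirror set. CTCF (CCACNAGGNGG), the factor of chromatin loop anchors, occurred in 1 member (0.457%), against 4.41% of distal peaks. The letters of GATA factors, which are AGATAA, were at 16.9% against 13.8% of distal peaks, STAT (TTCNNNGAA) at 11.4% against 8.82%, ETS (CAGGAAG) at 17.8% against 24.7%, KLF (GGGTGTG) at 12.8% against 10.6% and the interferon response element (GAAANNGAAA) at 7.76% against 5.60%. T-box (AGGTGTGA) occurred in 1.37% of members, EGR (GTGGGCG) in 2.28%, FOXO (TGTTTAC) in 5.48%, NR4A (AAAGGTCA) in 0.913%, CRE (TGACGTCA) in 0.457%, the CpG form of ETS (CCGGAAG) in 2.74% and the E-box CAGCTG in 20.1%, beside 1.63%, 6.97%, 4.02%, 1.40%, 1.41%, 7.44% and 18.1% of all peaks. In the same order, the shares of distal peaks were 2.09%, 4.13%, 4.9%, 1.78%, 0.981%, 3.88% and 19.0%. Absence of a match says only that these letters are not in the window.

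**Figure D4:**
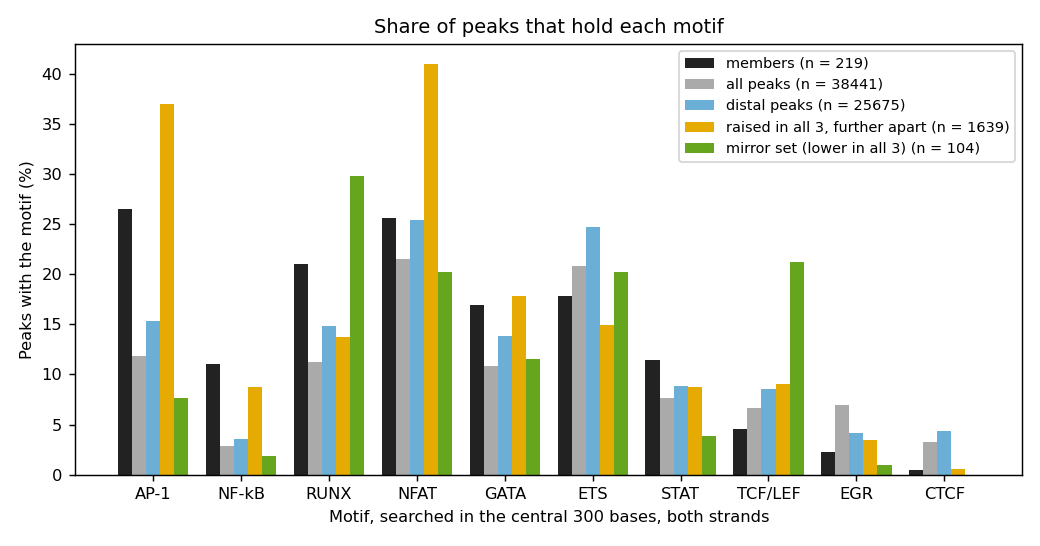
Share of peaks (y axis, percent) with each of 10 motifs in the central 300 bases, for members, all peaks, distal peaks, peaks that opened further apart in the 3 groups, and the mirror set. The AP-1 bar of members (26.5%) stands between all peaks (11.8%) and peaks that opened further apart (37.0%), and the NF-kB bar of members is 11% beside 2.91% of all peaks.

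Members with and without the AP-1 palindrome are described by the margin, which the rule bounds at 2, so that no comparison is drawn. The 58 with a match had a median margin of 2.58, the 161 without had 2.55 and the 8 with 2 or more matches had 2.19. Naive medians were 23.4 signal units with a match and 20.4 without. Anergic cells were highest at 36 of the 58 and at 80 of the 161. Members with 2 or more matches numbered 8, among them the printed Rgs2 and Cd44 peaks.

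Members lay nearest to 194 genes, of which 173 had 1 member, 17 had 2 and 4 had 3, and 36 are predicted or uncharacterised genes. Nearest means the closest start site, and no value here ties a peak to the gene it acts on. The members are described by the role of the nearest gene, from surface receptors to transcription factors and structural genes.

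Ctla4 encodes CTLA-4, the inhibitory receptor that competes with CD28, and 1 member lay 33.6 kb upstream of it. Its signal was 24.4 and 27.1 in naive, 271, 253 and 287 in Teff, 196, 255 and 206 in anergic, and 274, 228 and 406 in Treg libraries, a margin of 3.03. The 9 experienced libraries ranged from 196 to 406, and all were far above both naive libraries. Of 2 Ctla4 promoter peaks, neither a member, 1 had mean signal 681 in naive, 787 in Teff, 2180 in anergic and 1880 in Treg cells. The rule itself holds the 3 groups close at the distal member, so no contrast with the promoter peak is drawn. The member whose nearest gene is Icos, a costimulatory receptor, lay 72.5 kb downstream of the start. It was 1 of 21 peaks with Icos as the nearest gene. Its signal was 28.4 and 31.0 in naive, 168, 239 and 217 in Teff, 143, 209 and 126 in anergic, and 111, 121 and 180 in Treg libraries. All 3 experienced groups overlapped there. Il2rb encodes the beta chain of the receptors for interleukin 2 and interleukin 15. The member 15.4 kb upstream of it had 21.1 and 32.5 in naive, 257, 290 and 305 in Teff, 363, 242 and 217 in anergic, and 239, 164 and 218 in Treg libraries. There the Teff libraries were all above the Treg libraries, and the anergic libraries spanned both.

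Adhesion and activation markers followed. Itgal encodes the integrin LFA-1 alpha chain, and a member 2.47 kb upstream had 10.6 and 18.6 in naive libraries and 78.5 to 190 in experienced ones. The Cd44 member had 50.4 and 72.0 in naive, 315, 267 and 268 in Teff, 284, 303 and 220 in anergic, and 270, 196 and 304 in Treg libraries, with a spread of 0.16. Its 3 experienced groups overlapped. Of 105 peaks nearest to 19 activation marker genes, 6 were members (5.71%, against 0.570% of all peaks): 3 of Ahnak and 1 each of Il2rb, Itgal and Cd44. The 3 Ahnak members are neighbours with gaps of 116 and 374 bases, so they are not independent openings. In this list 54 of 105 peaks (51.4%) rose in Teff, 52 (49.5%) in anergic and 60 (57.1%) in Treg cells against naive by the limma test, beside 22.7%, 25.3% and 22.3% of all peaks. In the same order 9, 12 and 10 fell (8.57%, 11.4% and 9.52%, beside 17.4%, 25.1% and 23%).

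Rgs2 and Rgs1 encode regulators that end signalling by G proteins downstream of chemokine receptors. The Rgs2 member, 72.0 kb upstream, had 0.812 and 0.774 in naive, 98.3, 91.7 and 66.7 in Teff, 104, 113 and 47.0 in anergic, and 125, 111 and 160 in Treg libraries. Both naive values were 1 read, so no fold is given, and the margin of 5.54 fell to 3.37 with 8 added before the logarithm. The Rgs2 promoter, no member, was open in all groups at 7800 in naive, 6700 in Teff, 6280 in anergic and 6850 in Treg cells. The Rgs1 member, 59.4 kb upstream, had 8.94 and 19.4 in naive, 190, 155 and 110 in Teff, 149, 151 and 118 in anergic, and 170, 155 and 161 in Treg libraries. At both members the experienced groups lay at a like level, as the rule demands, and the naive libraries were far lower. Among 213 peaks near 25 genes of anergy and of negative regulation of the T cell receptor these were the 2 members (0.939%, beside 0.570% of all peaks). Of the 213, 13 (6.1%, beside 4.83% of all peaks) opened by 2 or more in all 3 groups.

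Single members near other genes that limit signalling follow, and only Birc3 among them is in a counted list. Dusp3 encodes a phosphatase of MAP kinases, and its intronic promoter member had 17.1 and 20.9 in naive, 149, 168 and 272 in Teff, 259, 263 and 256 in anergic, and 143, 151 and 195 in Treg libraries. Anergic libraries were above all Treg libraries there, and Teff libraries spanned both. Tnfaip3 encodes A20, an enzyme that limits NF-kB signals, and was chosen after its values were seen. Its intronic member had 154 and 114 in naive, 537, 610 and 667 in Teff, 827, 864 and 1010 in anergic, and 967, 881 and 1110 in Treg libraries. Teff cells lay below both other subsets there without overlap. Birc3, an inhibitor of cell death in the NF-kB pathway, had an intronic member with 49.6 and 26.3 in naive, 147, 174 and 180 in Teff, 129, 160 and 193 in anergic, and 257, 185 and 246 in Treg libraries, with Treg above all Teff libraries. Samsn1, an adaptor protein gene, had a member with 18.7 and 29.4 in naive libraries and 198 to 323 in experienced ones, with a spread of 0.22.

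The 2 members with the highest margins lay in introns of a transcription factor gene. RORalpha, encoded by Rora, is a nuclear receptor of effector and tissue T cells. The Rora intron member at chr9:69299994-69300615 had 12.2 and 3.1 in naive, 656, 590 and 588 in Teff, 524, 559 and 535 in anergic, and 482, 421 and 408 in Treg libraries, a margin of 5.89. Here the groups were in the order Teff, anergic, Treg with no overlap, all within 0.48. A further member lay in the same gene (margin 3.36), and 2 members nearest to the predicted gene Gm15511 also lay in Rora introns, 1 of them with the highest margin of all, 6.02. That peak had 0.812 and 3.1 in naive, 247, 289 and 228 in Teff, 138, 201 and 195 in anergic, and 222, 375 and 233 in Treg libraries. The Rora promoter peak, no member, was at 1640 in naive, 3690 in Teff, 2790 in anergic and 2140 in Treg cells.

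Fosb encodes an AP-1 subunit and had 3 members between 11.6 and 16.5 kb upstream. The strongest opening had 51.2 and 46.5 in naive, 541, 809 and 590 in Teff, 521, 761 and 807 in anergic, and 492, 664 and 824 in Treg libraries, with a margin of 3.68 and a spread of 0.10. All 3 experienced groups covered the same range. These 3 peaks were all that opened by 2 or more in all 3 groups among the 7 peaks nearest to Fosb. Batf encodes the AP-1 factor that pairs with IRF4, and its intronic member had 57.7 and 49.6 in naive, 269, 342 and 283 in Teff, 292, 476 and 443 in anergic, and 222, 351 and 365 in Treg libraries. A Batf promoter peak, 1 of 2 and no member, was at 1070 in naive, 1130 in Teff, 1300 in anergic and 926 in Treg cells. The 164 peaks near AP-1, BATF and IRF genes thus held 4 members (2.44%, beside 0.570% of all peaks). Of these, 3 are the Fosb members, and 2 of them lie 107 bases apart, so they are not independent openings. Of the 164, 50 (30.5%) rose in Teff, 54 (32.9%) in anergic and 48 (29.3%) in Treg cells, beside 22.7%, 25.3% and 22.3% of all peaks, and 46, 58 and 25 fell (28%, 35.4% and 15.2%, beside 17.4%, 25.1% and 23%).

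Maf encodes c-MAF, a regulator of interleukin 10 and other cytokines. Its member, 200 kb downstream of the start, had 18.7 and 17.8 in naive, 187, 195 and 173 in Teff, 383, 306 and 259 in anergic, and 282, 292 and 313 in Treg libraries. Teff libraries were below all anergic and Treg libraries. Ikzf2 encodes HELIOS, a factor known from Treg cells. The member in its intron had 21.9 and 20.9 in naive, 375, 335 and 173 in Teff, 257, 308 and 351 in anergic, and 250, 336 and 347 in Treg libraries, and its 3 experienced groups overlapped, with a spread of 0.14. With Rora (2) these made 4 members among 187 peaks of effector and memory transcription factors (2.14%, beside 0.570% of all peaks). In all, 42 of the 187 (22.5%, beside 4.83% of all peaks) opened by 2 or more in all 3 groups. In that list 117 (62.6%), 105 (56.1%) and 103 (55.1%) of the 187 rose in Teff, anergic and Treg cells, beside 22.7%, 25.3% and 22.3% of all peaks, and 13, 28 and 19 fell (6.95%, 15% and 10.2%, beside 17.4%, 25.1% and 23%).

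Further factors were chosen after their values were seen. Members nearest to 0610040F04Rik lay by Bhlhe40, which encodes a repressor that supports cytokine production: 1 in its 3′ untranslated region (margin 3.33) and 1 at 28.0 kb from its start (3.24). Runx1, a factor of T cell development, had an intronic member with 53.6 and 50.3 in naive, 277, 361 and 373 in Teff, 363, 354 and 340 in anergic, and 189, 236 and 248 in Treg libraries, where Treg cells lay below both other subsets.

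Some named genes encode proteins of the cytoskeleton or of cell shape, a role for which no list was counted, though Ahnak is in the activation list above. Ahnak, a large scaffold protein gene, had 3 members within 2.05 to 2.90 kb of its start, with margins of 3.31, 2.60 and 2.18. The first had 4.06 and 4.65 in naive, 36.7, 45.4 and 85 in Teff, 76.3, 69.1 and 84.6 in anergic, and 38.3, 72.4 and 72.2 in Treg libraries. These peaks are neighbours 116 bases apart or more and are not independent openings. Asap1, a regulator of ARF GTPases, also had 3 intronic members, with margins of 3.24, 2.74 and 2.22. At the largest of them Asap1 signal was 95.1 and 62.7 in naive, 637, 569 and 540 in Teff, 844, 869 and 789 in anergic, and 489, 581 and 500 in Treg libraries, with anergic cells above both other subsets. Rcsd1 encodes a protein that binds actin capping protein. Its member, 14.7 kb upstream, had 14.6 and 10.1 in naive, 381, 349 and 262 in Teff, 295, 342 and 266 in anergic, and 301, 294 and 296 in Treg libraries, a margin of 4.5 with a spread of 0.14. Myo1e, a myosin gene, had a member in its 5′ untranslated region, with 51.2 and 104 in naive libraries and 498 to 960 in experienced ones. Mapre2, a gene for a protein of microtubule ends, had 2 intronic members with margins of 3.67 and 2.57.

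Non-coding RNA genes were among those with most members. Upstream of Mir21a lay 3 members, at 1.62, 3.91 and 7.35 kb within introns of Vmp1, the host of this activation-induced microRNA, with margins of 2.29, 2.09 and 2.59. The farthest of them had 39.0 and 54.2 in naive, 323, 392 and 427 in Teff, 332, 445 and 453 in anergic, and 246, 343 and 268 in Treg libraries. Mir21a had 17 peaks in all, and 11 of these opened by 2 or more in all 3 groups. Peaks near Mir146 (margin 2.20), which dampens NF-kB signals, and Mir148a (2.75) were members as well. In introns of Morrbid, a long non-coding RNA known to restrain the death gene Bcl2l11, lay 2 members with margins of 3.92 and 2.96. The first of these had 7.31 and 2.32 in naive, 138, 81.8 and 100 in Teff, 54.7, 116 and 75.9 in anergic, and 100, 91.5 and 88.6 in Treg libraries. The genes of this paragraph other than Mir21a were chosen after their values were seen.

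The remaining large margins lay near genes of varied roles. Gpr65, an acid-sensing receptor gene, had a member with 0.812 and 0.774 in naive, 54.0, 66.9 and 41.7 in Teff, 82.9, 72.2 and 79.9 in anergic, and 69.8, 128 and 50.6 in Treg libraries. Parp16 encodes an enzyme of the endoplasmic reticulum, and its member had 0.812 and 0.774 in naive libraries and 31.5 to 88.0 in experienced ones. The naive values of both are 1 read, and their margins of 4.92 and 4.66 became 2.80 and 2.58 with 8 added before the logarithm. Gmpr, an enzyme of purine metabolism, is the nearest start of a member in an Atxn1 intron, with 1.62 and 1.55 in naive, 92.8, 85.9 and 73.3 in Teff, 144, 127 and 121 in anergic, and 99.1, 147 and 84.8 in Treg libraries. The naive values there are 2 reads each. The Hus1b member lay in an Exoc2 intron and had 10.6 and 0.774 in naive libraries and 101 to 214 in experienced ones. The Eif3h member lay in that translation factor gene and had 0.812 and 20.9 in naive, 198, 211 and 125 in Teff, 295, 296 and 269 in anergic, and 162, 183 and 214 in Treg libraries. Its margin of 4.79 rested on the naive pair, being 3.00 without naive replicate 1 and 6.59 without naive replicate 2. The Zfp362 member had 0.812 and 6.19 in naive libraries and 80.0 to 204 in experienced ones.

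**Figure D5:**
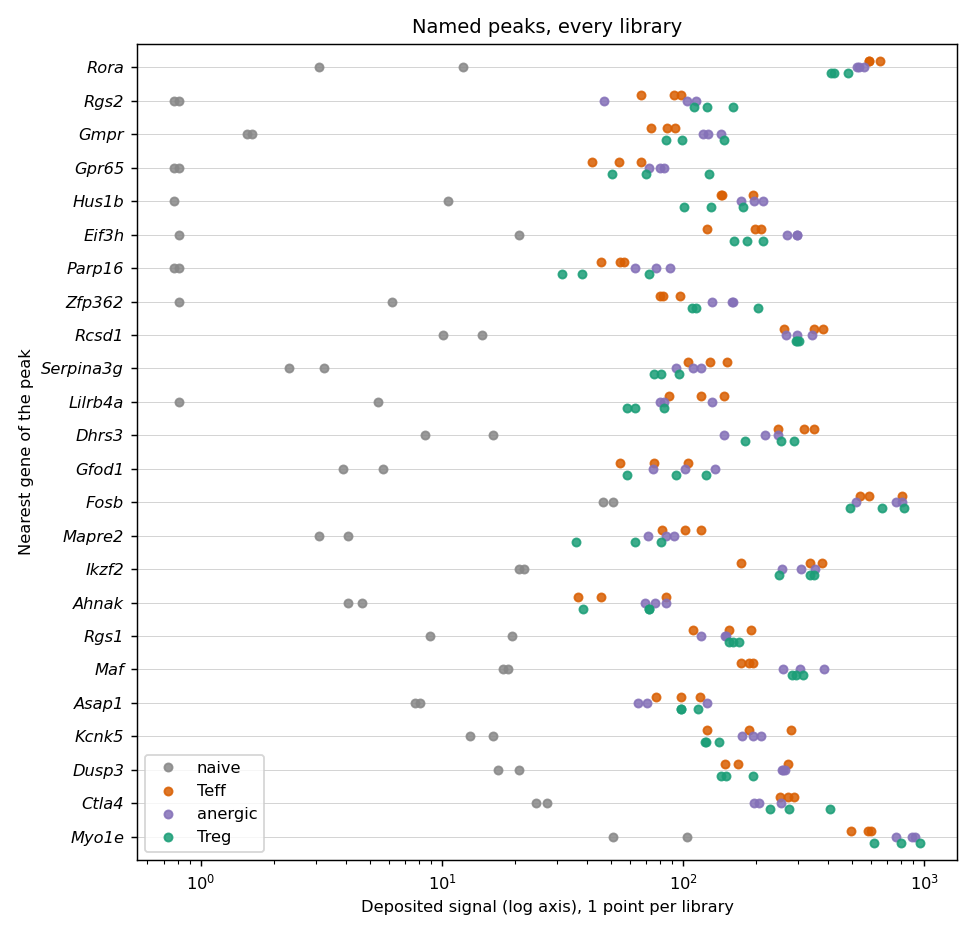
Deposited signal (x axis, log axis) in every library for the largest-margin member of 24 named genes (y axis), 1 point per library, coloured by group and ordered by margin from Rora at the top. Naive points lie left of all experienced points in every row.

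Among promoter members whose nearest gene is not a predicted or uncharacterised one, those with the largest margins lay at Serpina3g, Lilrb4a, Kcnk5, Dusp3, Myo1e and Nek6. Serpina3g encodes a protease inhibitor of activated lymphocytes. Its promoter had 3.25 and 2.32 in naive, 129, 152 and 105 in Teff, 119, 110 and 93.4 in anergic, and 75.5, 95.8 and 81.0 in Treg libraries. Treg libraries were the lowest but for 1 overlap with an anergic library. Lilrb4a encodes an inhibitory receptor, and its promoter had 0.812 and 5.42 in naive, 147, 87.5 and 118 in Teff, 131, 82.8 and 79.9 in anergic, and 63.1, 83.0 and 58.2 in Treg libraries. The Kcnk5 member, in a potassium channel gene, had 13.0 and 16.3 in naive libraries and 123 to 280 in experienced ones. Of the 18 promoter members, 2 lay at Kcnk5 and 2 at the predicted gene Gm6637 (margins 3.86 and 2.35), whose nearest coding gene is Klrg1, a receptor of differentiated T cells, at 11.2 kb. The Nek6 promoter member, in a mitotic kinase gene, had 15.4 and 33.3 in naive libraries and 128 to 257 in experienced ones. Dhrs3, a retinoid-metabolising enzyme gene, had 1 member at its start (margin 2.15) and 1 at 5.05 kb downstream of it (3.97).

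Hopx, a homeobox gene of effector and regulatory T cells, had an intronic member with 19.5 and 17.0 in naive, 147, 170 and 103 in Teff, 129, 125 and 80.6 in anergic, and 126, 170 and 151 in Treg libraries. A Hopx promoter peak that was no member had a mean of 12 in naive, 50 in Teff, 267 in anergic and 535 in Treg cells. As the rule holds the 3 groups close at the intronic member, it is not contrasted with the promoter peak. The Gfod1 gene, a putative oxidoreductase, had 2 intronic members with margins of 3.75 and 2.36.

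Some lists held no member. None of 124 peaks near cytokine and TNF family ligand genes was a member, although 27 of them (21.8%, beside 4.83% of all peaks) opened by 2 or more in all 3 groups. Of the 124, 73 (58.9%) rose in Teff, 83 (66.9%) in anergic and 67 (54%) in Treg cells against naive, and 4, 13 and 18 fell (3.23%, 10.5% and 14.5%), beside the shares of all peaks given above. Inhibitory receptor genes had 112 peaks, of which 23 (20.5%, beside the same 4.83%) opened by 2 or more in all 3 groups. Of the 112, 1 (0.893%), near Ctla4, was a member. Members were also absent from 89 peaks of NR4A, EGR and NFAT genes, 152 of migration and residency genes, 409 of naive state genes and 59 of housekeeping genes. With 0.570% of all peaks being members, few or none would be found in lists of these sizes at the background share, so nothing is read from their absence. Each of the lists of costimulatory receptors (Icos), chemokines and cytotoxic effectors (Hopx) and the BCL2 family with cell death genes (Birc3) had 1 member, of 110, 34 and 93 peaks. These are 0.909%, 2.94% and 1.08%, beside 0.570% of all peaks.

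Other peaks of the same genes also differed from naive. The 194 genes had 1329 further peaks, of which 216 (16.3%) opened by 2 or more in all 3 groups but further apart, against 4.26% of all peaks. Of 185 promoter peaks of 129 of these genes that were no members, 41.6% were called higher than naive in Teff, 41.1% in anergic and 36.8% in Treg cells, against 12.3%, 15.1% and 11.1% of all promoter peaks. Their median differences over naive were 0.28, 0.24 and 0.20 log2 units, far smaller than those of the members. These peaks are in the same libraries and contrasts that chose the members, so the shares are a description. Of neighbouring members on a chromosome, 16 pairs were within 5 kb and 33 within 100 kb.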

How the data were processed

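Accessibility was measured by ATAC-seq in 11 libraries. Per the series' design text, the authors trimmed reads with Trimmomatic 0.38.1, aligned them to mm10 with Bowtie2 2.3.3.1, called peaks per sample with Genrich 0.5 and merged them into 38509 consensus peaks with DiffBind 2.10.0. The deposited signal is a normalized value per peak and library whose scaling method is not given in the sources used here. Division by the smallest value of each library gave whole reads for 100.0% of values within 0.01. Groups follow the labels. Where replicates share an animal, which the labels neither state nor exclude, a p-value reflects technical spread alone.

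Members were chosen on log2 of the deposited signal plus 1. The test for scaled values, limma 3.58.1 (R 4.3.3, trend, all 11 libraries in 1 fit), was run on the same scale over 38493 peaks that passed filterByExpr of edgeR 4.0.16, with Benjamini-Hochberg adjusted p and a threshold of 0.05. The script was tested on simulated data. On recovered reads, edgeR called 15735 peaks for Teff against naive, 19546 for anergic against naive, 16779 for Treg against naive, 12830 for anergic against Teff, 12227 for Treg against Teff and 12820 for anergic against Treg, and 219 members in each comparison with naive. DESeq2 1.42.0 was a further alternative, as were other scalings, added constants, filters and the omission of each library.

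The 38441 peaks placed on chromosomes were assigned to the nearest of 45756 RefSeq transcript starts on GRCm38.p6, which has the coordinates of mm10, and coordinates count from 1. The 20 motifs were searched without mismatches. The members, the 17 gene lists and the rules were chosen with earlier results of these data known. Named peaks are members whose nearest gene is not a predicted model: the 10 largest margins, the 8 genes with most members, up to 3 genes per list, the 6 promoter members of largest margin and the 2 on each side of the margin threshold. Some named peaks and 1 gene list are not reported here. RNA-seq described for the series was not analysed here.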

Additional observations from a re-analysis of the deposited data

How the results depend on the processing

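The number of members depended on the limits of the rule: 418 with a difference of 1.5 or more, 118 with 2.5 or more, 105 with a spread within 0.5 and 389 within 1.1. Other scalings gave 278 (total reads), 238 (TMM) and 233 (median of ratios), added constants of 0.5 and 8 gave 222 and 165, and 212 of the 219 were kept under all 3 scalings. Leaving out 1 library gave 198 to 257 members, and 100 of the 219 were kept under every such omission. Members called higher than naive were 218 or 219 of 219 for Teff and anergic cells and 219 for Treg cells without 1 library.

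Calls between experienced groups moved most. For anergic against Teff, 26 members became 40 with DESeq2, and 15 to 34 without 1 library (16 without Teff replicate 1, 17 without Teff replicate 2, 15 without anergic replicate 2, 17 without anergic replicate 3). For Treg against Teff, 15 became 26 with only the libraries of the 2 groups, and 7 to 22 without 1 library (7 without Teff replicate 2). For anergic against Treg, 23 became 12 with total-read scaling, 14 with TMM, 37 with only the libraries of the 2 groups, and 8 to 33 without 1 library (12 without anergic replicate 2, 8 without Treg replicate 1). The cause was not tested. Counts over all peaks in either direction stayed within 1.5 times in each setting run. In 1 direction they did not: peaks lower than naive went from 6679 to 3645 in Teff and from 8867 to 5242 in Treg cells without naive replicate 1, and to 5721 in Treg cells with total-read scaling.

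Same-numbered libraries correlated at -0.114 to 0.155 after group means were removed, and libraries of different numbers at -0.22 to 0.186. With 2 or 3 libraries per group, these values cannot decide whether the replicate numbers pair the libraries. With the replicate number as a block, 30, 17 and 25 members were called in these 3 comparisons and 219 in each comparison with naive. The share of members with AP-1 letters was 20.5% in the central 200 bases and 28.8% in whole peaks, and the promoter share was 6.39% within 500 bases and 13.2% within 2000 bases. Of 735 margins of named peaks under other settings, 62 moved by over 1 SD and 0 changed sign. The 2 naive libraries, with few reads at members, limit the size of each margin.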
